A study of Mus musculus with 6 samples.

Results

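The cell cycle and DNA replication genes examined here are a named set of 39 genes whose products start DNA replication, copy the genome or run mitosis. They were taken by symbol from the annotation of an exon-level array, with Cdk1 listed there under its older symbol Cdc2a. Of the 39, 36 had probe sets carrying their symbol alone and were measured, out of 15045 genes measured in all; Ccnb1, Cenpf and Rrm2 had none and were not analysed here. Livers came from 3 Dhx32-/- mice, homozygous for a mutation of the DEAH-box RNA helicase gene Dhx32, and from 3 control mice given as wild type, with 1 array per mouse. All 6 were males of 6 to 8 weeks. The background strain and the nature of the mutation are not given in the sources used here.

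Dividing cells pass from G1 into S phase when D- and E-type cyclins release E2F transcription factors, which switch on the replication genes. Cdc6 and the MCM helicase load onto replication origins, the Pcna clamp holds the polymerases on DNA, and Rrm1 and Tyms supply deoxynucleotides. Later, Foxm1 and related factors switch on Cdk1, its cyclins, Plk1, the Aurora kinases and the spindle proteins. Most hepatocytes of an adult mouse liver have left the cycle, and many are polyploid after rounds of replication without cell division.

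The arrays carried log2 signals with medians of 6.73 to 6.95. Mutant replicate 1 stood apart, with correlations of 0.935 to 0.940 with the other arrays against 0.960 to 0.973 among those, so differences that it moved are in many cases also given without it. Dhx32 itself read 6.35, 6.60 and 7.04 in the mutants and 8.28, 8.85 and 8.62 in the controls, so every mutant lay below every control. Hepatocyte markers were bright on every array, averaging 12.97 to 13.22 in the mutants and 12.97 to 13.15 in the controls over 8 measured of 10 listed genes. Because the tissue was analysed in bulk, fewer dividing cells and less of a transcript per cell cannot be told apart in what follows.

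Mutation of Dhx32 was compared with control to ask whether the cell cycle programme of the liver differed. No member passed an adjusted p of 0.05 in limma, at which 0.00665% of all genes tested were called. Of the 36 genes, 13 had a higher and 23 a lower mean in mutants, where 47.5% and 52.5% of all genes did, and the median difference was -0.06 on the log2 scale, beside -0.01 over all genes tested. The number lower was 14 of 36 without control replicate 3 and 16 without mutant replicate 2, when the medians over the same probe sets were 0.03 and 0.05. The exceptions in size were Hmgb2 and Cenpq, lower in every mutant, and Rcc1, higher in every mutant. These 3 reached an unadjusted p under 0.05, 8.33% of the members against 4.21% of all genes, and the smallest adjusted p of any member was 0.943. The members were chosen with earlier results of these data known, so their shares are descriptions only. In 4 members the mutant and control arrays did not overlap, 11.1% against 9.47% of all genes, the additional gene being Mcm5. Rcc1 and Mcm5 were the members higher without overlap (5.15% of all genes were), and Hmgb2 and Cenpq those lower (4.32%). The median SD within groups was 0.26 for the members and 0.23 for all genes. For 29 of the 36 the 95% interval of the difference lay within 1 log2 unit of 0, against 89.4% of all genes.

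**Figure D1:**
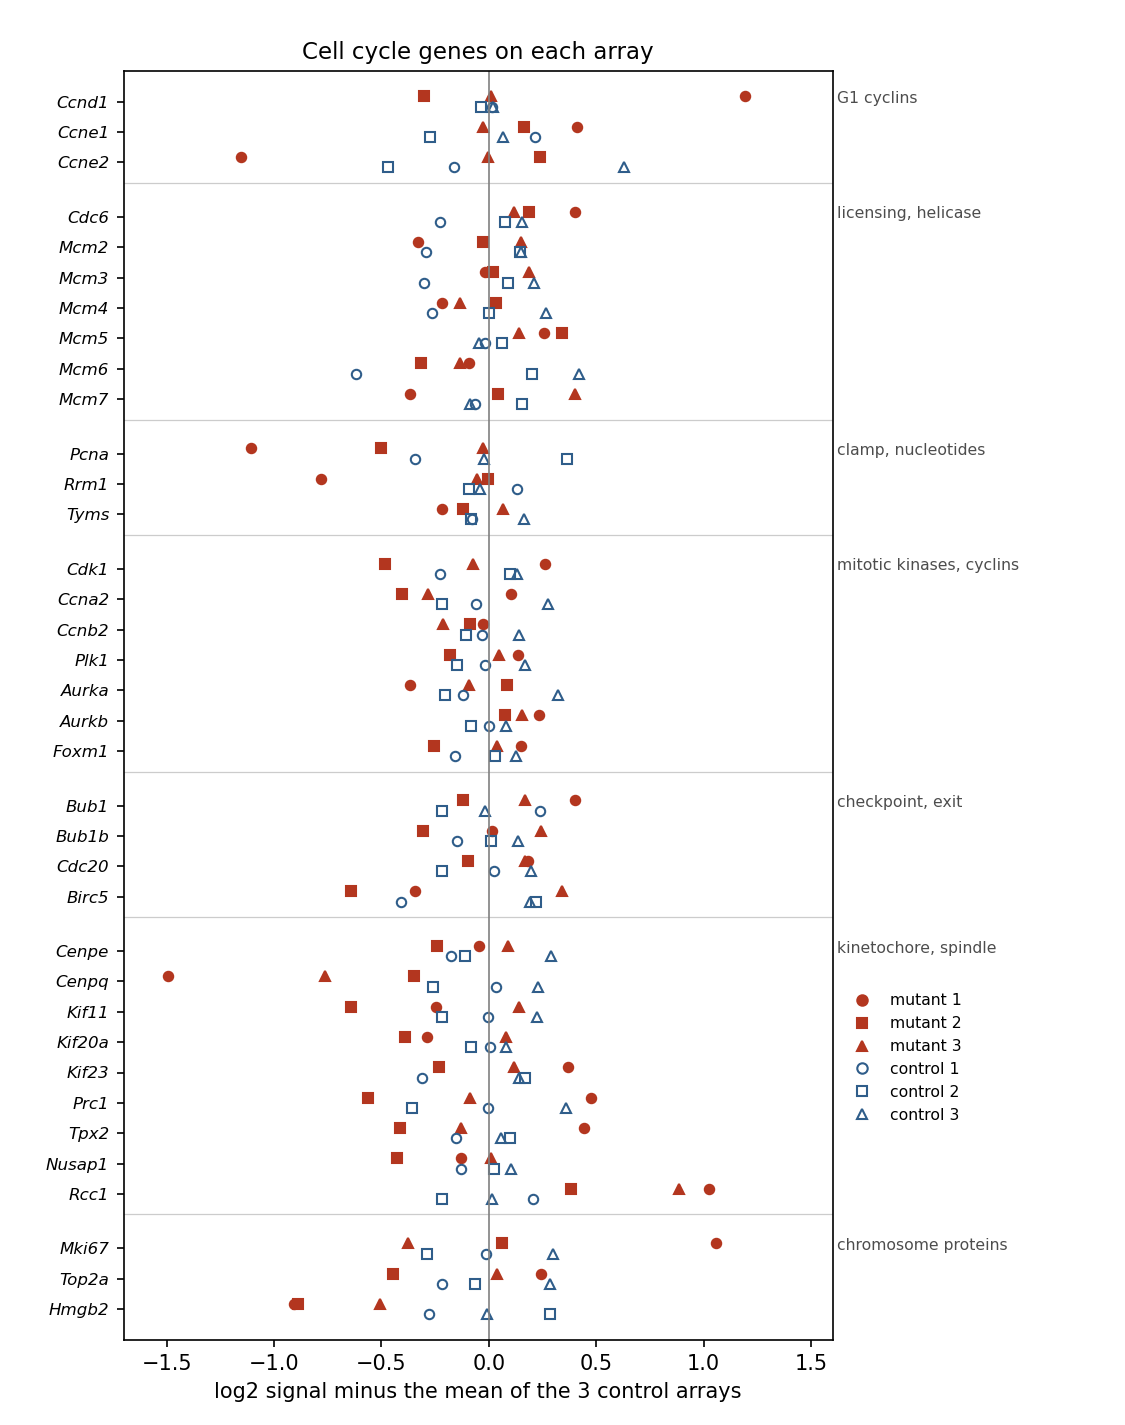
Log2 signal of each measured cell cycle gene on each array, minus the mean of the 3 control arrays (x axis), with genes down the page by role; filled symbols are mutant livers and open symbols control livers. The mutant symbols of Hmgb2 and Cenpq lie left of all their control symbols, those of Rcc1 and Mcm5 lie right of them, and elsewhere the groups overlap.

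Hmgb2 encodes a high-mobility-group protein that bends DNA and is abundant in dividing cells. It read 5.61, 5.63 and 6.01 in the mutants and 6.24, 6.80 and 6.51 in the controls, so the highest mutant lay under the lowest control. The means were 5.75 ± 0.22 in mutants and 6.52 ± 0.28 in controls (SD, n = 3 each), 1.70-fold lower in mutants. The difference was -0.77 (SE 0.20, 95% interval -1.22 to -0.31), with an adjusted p = 0.943 and an unadjusted p = 0.00441 in limma. Without mutant replicate 1 the difference was -0.70. Of its 9 measured probe sets 8 had a lower mean in mutants, where 53.2% of all probe sets had a lower and 46.8% a higher one. Probe set 5483344 had the smallest unadjusted p of all 500 measured member probe sets (3.93e-05, adjusted p = 0.380 in limma). It read 4.42, 4.51 and 4.47 in the mutants and 6.53, 6.37 and 6.20 in the controls. Probe set 4914057 of the same gene showed no such gap, with 5.66, 5.72 and 5.32 in the mutants and 5.49, 5.48 and 5.66 in the controls.

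Cenpq encodes a subunit of the inner kinetochore, which sits on centromeric chromatin and connects it to the spindle. It read 3.84, 4.99 and 4.58 in the mutants and 5.37, 5.08 and 5.57 in the controls. Mutant replicate 2 lay just under the lowest control, and mutant replicate 1 was far below. The difference was -0.87 (SE 0.29, 95% interval -1.53 to -0.21), or 1.83-fold lower, with an adjusted p = 0.943 and an unadjusted p = 0.016 in limma. Without mutant replicate 1 it was -0.56. Of 9 probe sets 8 had a lower mean in mutants, and in 5 of them the mutants lay below all controls (4.44% of all probe sets did, and 8.45% did not overlap in either direction). Among the lower ones, 5103436 and 4335789 averaged 2.90 and 2.80 in mutants and 3.88 and 4.76 in controls. Both passed the signal minimum of 3 through the controls alone, so they could only be lower in mutants. Both also enter the gene mean. Probe set 5345665 read 3.96, 4.07 and 3.73 in the mutants and 4.89, 5.22 and 5.98 in the controls. Probe set 5152029 read 5.02, 5.33 and 4.93 in the mutants and 5.87, 5.98 and 6.32 in the controls. The remaining probe set, 4696891, averaged 5.64 in mutants and 5.19 in controls.

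Rcc1 encodes the chromatin-bound exchange factor of the small GTPase Ran, which drives nuclear transport and guides spindle assembly. It read 7.72, 7.08 and 7.58 in the mutants and 6.90, 6.48 and 6.71 in the controls, with every mutant above every control. The means were 7.46 ± 0.34 in mutants and 6.70 ± 0.21 in controls (SD, n = 3 each), 1.70-fold higher in mutants. The difference was 0.76 (SE 0.21, 95% interval 0.28 to 1.24), with an adjusted p = 0.943 and an unadjusted p = 0.00613 in limma. Without mutant replicate 1 it was 0.63. All 11 probe sets had a higher mean in mutants, by 0.26 to 1.23, and in 7 of them the mutants lay above all controls, as in 4.01% of all probe sets. Probe set 4500254 read 8.27, 7.80 and 8.42 in the mutants and 7.38, 6.84 and 6.56 in the controls. Probe sets of a gene share the same arrays and are not separate replicates.

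**Figure D2:**
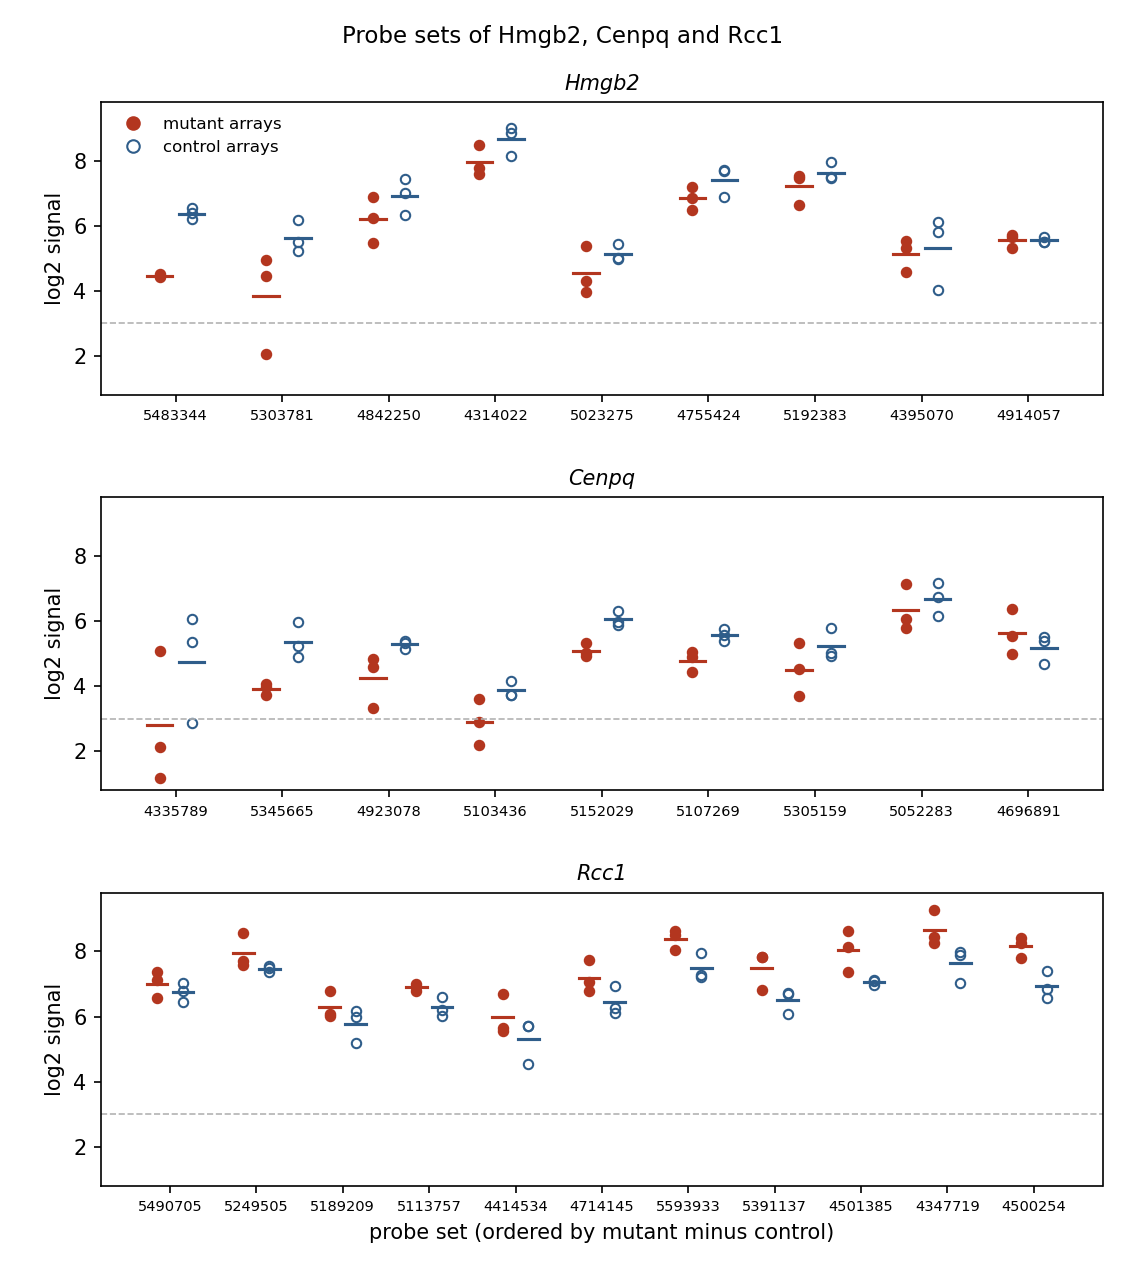
Log2 signal (y axis) of every measured probe set of Hmgb2, Cenpq and Rcc1, ordered along the x axis by the difference between groups; points are arrays, short lines group means and the dashed line the signal minimum of 3. In Rcc1 the mutant mean lies above the control mean in all 11 probe sets, whereas in Hmgb2 and Cenpq it lies below in 8 of 9. The mutant means of Cenpq probe sets 5103436 and 4335789 lie under the dashed line.

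The sequences before the transcription starts of these 3 genes are shown because many genes of the set are switched on through short promoter motifs, together with that of Cdk1, a mitotic gene whose groups overlapped. Each is the 250 bases before the annotated start, from RefSeq on GRCm38.p6, 5′ to 3′ on the strand of the gene. They lie at chr8:57511593-57511842, plus strand for Hmgb2, chr17:40934575-40934824, minus strand for Cenpq, chr4:132345751-132346000, minus strand for Rcc1 and chr10:69352913-69353162, minus strand for Cdk1. Capitals mark 3 kinds of motif on either strand, the cell cycle homology region (TTTGAA), the CCAAT box (CCAAT) and E2F-type elements (the forms TTCCCGC and TTCGCGC, with the forms TTGCCGC and also TTGGCGC). The 3 motifs were counted separately, and adjacent or overlapping copies of a motif each counted.
Hmgb2: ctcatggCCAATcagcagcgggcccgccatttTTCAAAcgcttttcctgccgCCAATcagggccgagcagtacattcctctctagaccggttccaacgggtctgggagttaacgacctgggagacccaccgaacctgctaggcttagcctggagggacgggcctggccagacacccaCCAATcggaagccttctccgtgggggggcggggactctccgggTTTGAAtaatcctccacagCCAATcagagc
Cenpq: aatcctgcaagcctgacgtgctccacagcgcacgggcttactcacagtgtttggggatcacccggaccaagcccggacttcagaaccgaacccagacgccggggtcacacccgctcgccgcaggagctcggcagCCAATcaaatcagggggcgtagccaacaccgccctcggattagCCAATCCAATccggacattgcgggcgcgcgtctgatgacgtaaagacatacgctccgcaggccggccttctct
Rcc1: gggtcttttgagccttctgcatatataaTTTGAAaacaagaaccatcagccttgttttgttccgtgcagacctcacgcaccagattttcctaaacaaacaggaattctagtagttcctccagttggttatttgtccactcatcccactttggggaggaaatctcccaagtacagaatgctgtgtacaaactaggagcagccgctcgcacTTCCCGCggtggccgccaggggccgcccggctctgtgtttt
Cdk1: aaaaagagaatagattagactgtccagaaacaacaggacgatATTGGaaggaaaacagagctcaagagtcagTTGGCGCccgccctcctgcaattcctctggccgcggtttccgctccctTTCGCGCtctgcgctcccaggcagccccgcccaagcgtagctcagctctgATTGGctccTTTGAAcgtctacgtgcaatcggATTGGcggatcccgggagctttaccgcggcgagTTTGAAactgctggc
The Hmgb2 sequence held 4 CCAAT boxes and 2 copies of TTTGAA in either orientation, with a copy 30 bases before the start. Cdk1 held 3 CCAAT boxes, 2 copies of TTTGAA and 2 E2F-type elements. Cenpq held 3 CCAAT boxes and neither other motif, and Rcc1 held 1 copy of TTTGAA, 222 bases before the start, and 1 E2F-type element, 41 bases before it. Promoter sequences of 28 of the 36 measured members were matched by symbol, and a motif counted if any annotated start of the gene held it. A CCAAT box was found in 22 of the 28 (78.6%, against 37.5% of 27025 genes), TTTGAA in 10 (35.7%, against 18.3%), both together in 9 (32.1%, against 6.45%) and an E2F-type element in 8 (28.6%, against 9.01%). These are matches of letters and not measured binding.

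Among the G1 cyclins, Ccnd1, the D-type cyclin that opens the cycle in regenerating liver, was high on 1 array. It read 8.48, 6.98 and 7.30 in the mutants and 7.30, 7.25 and 7.30 in the controls. The difference of 0.30 (SE 0.35, adjusted p = 0.943 in limma) was -0.15 without mutant replicate 1, and that array was the highest of the 6 in each of the 5 Ccnd1 probe sets. Ccne1, which activates Cdk2 at the start of S phase, read 6.21, 5.97 and 5.77 in the mutants and 6.02, 5.53 and 5.87 in the controls. Ccne2, the second E-type cyclin gene, differed by -0.31 (SE 0.40), with mutant replicate 1 lowest at 3.45, and by 0.12 without that array.

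On mutant replicate 1, the averages of markers of some other cell types were also high, though not every marker was. Neutrophil markers, 7 measured of 10 listed, averaged 5.75, 5.13 and 4.86 in the mutants and 4.90, 4.70 and 5.03 in the controls. Of these 7 genes 5 had a higher mean in mutants. The granule protein genes Prtn3 (1.05, SE 0.33) and Ngp (0.59, SE 0.23) had an unadjusted p under 0.05, as 4.21% of all genes did, while Camp (-0.35) and Mpo (-0.07), also granule genes, had a lower mean. Prtn3 differed by 0.71 and Ngp by 0.35 without mutant replicate 1. Macrophage markers, 10 of 10 measured, averaged 8.65, 7.83 and 7.89 in the mutants and 7.82, 8.23 and 8.25 in the controls. Csf1r, Adgre1 and Vsig4 were not highest on mutant replicate 1, whereas the other macrophage markers were. T and NK cell markers ranged over 5.34 to 5.45 in the mutants and 5.40 to 5.50 in the controls, and B cell markers over 5.08 to 5.42 in the mutants and 5.23 to 5.26 in the controls. Unadjusted p-values under 0.05 were also found for Gzma (0.45) and Klrb1c (-0.48) of the T and NK cell list, Rhag (0.63) and Klf1 (-0.50) of the erythroid list and Reln (-0.93, or -0.45 without mutant replicate 1) of the stellate cell list. Cholangiocyte markers averaged 6.47, 5.90 and 6.15 in the mutants and 6.07, 5.94 and 5.84 in the controls. Spp1, at 10.09, Sox9, Krt7 and Krt19 were highest on mutant replicate 1, and Cftr and Epcam were not. Erythroid markers spanned 6.47 to 6.70 in the mutants and 6.42 to 6.74 in the controls, and stellate cell markers 6.77 to 7.29 in the mutants and 7.12 to 7.42 in the controls. The part of these cells in the results was not tested.

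The replication helicase and its loader showed small differences in both directions. Mcm5, a subunit of the hexameric MCM helicase, read 5.96, 6.05 and 5.85 in the mutants and 5.69, 5.76 and 5.66 in the controls. The groups did not overlap, yet the difference was only 0.25 (SE 0.14, 95% interval -0.08 to 0.57, adjusted p = 0.943 in limma). The other 5 subunits of the helicase, Mcm2, Mcm3, Mcm4, Mcm6 and Mcm7, differed by -0.18 to 0.06. Mcm2 read 6.07, 6.37 and 6.55 in the mutants and 6.10, 6.54 and 6.55 in the controls. The licensing factor Cdc6, which helps load the helicase, differed by 0.23 (SE 0.17). Its probe set 4412317 was dim and read 4.23, 4.81 and 4.42 in the mutants and 2.58, 3.55 and 2.83 in the controls, so 2 of the control values lay under the signal minimum of 3. The control mean, 2.99, was also under it, so the probe set was kept through the mutants and could only be higher in them. The same held for probe set 4377921, which averaged 4.14 in mutants and 2.61 in controls. Conversely, 4429391 (2.73 in mutants and 3.31 in controls) was kept through the controls and could only be lower. All of these enter the Cdc6 mean. Over its 14 probe sets the median difference was 0.02, with 7 higher and 7 lower.

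The clamp and nucleotide genes had lower means in mutants, and mutant replicate 1 was the lowest array for each of them. Pcna, the sliding clamp, read 7.12, 7.72 and 8.20 in the mutants and 7.88, 8.59 and 8.20 in the controls. Its difference was -0.55 (SE 0.29, 95% interval -1.22 to 0.13, adjusted p = 0.943 in limma) and -0.27 without mutant replicate 1. The Pcna mean includes probe set 4877675, which averaged 2.68 in mutants and 4.72 in controls. It was kept through the controls alone and could only be lower in mutants. The median difference over the Pcna probe sets was -0.43. Rrm1, the large subunit of ribonucleotide reductase, had a lower mean in all 19 of its probe sets. Its level was 6.82, 7.60 and 7.55 in the mutants and 7.73, 7.51 and 7.56 in the controls, so only mutant replicate 1 lay apart, and the difference of -0.28 (SE 0.22) was -0.03 without it. Tyms, which makes thymidylate, differed by -0.09 (SE 0.16).

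Genes of mitotic entry overlapped between the groups, with differences of -0.19 to 0.16. Cdk1, the kinase that drives mitosis, read 5.86, 5.12 and 5.53 in the mutants and 5.37, 5.70 and 5.73 in the controls, a difference of -0.10 (SE 0.22, 95% interval -0.59 to 0.40) that was -0.28 without mutant replicate 1. Ccna2, its S and G2 phase cyclin, read 5.67, 5.17 and 5.29 in the mutants and 5.51, 5.35 and 5.85 in the controls, a difference of -0.19 (SE 0.20), or -0.34 without mutant replicate 1. Plk1, a kinase of spindle assembly, read 6.26, 5.94 and 6.17 in the mutants and 6.10, 5.97 and 6.29 in the controls, with a difference of 0.00 (SE 0.16). On these genes the arrays of the groups were interleaved. Aurka, which matures the spindle poles, read 5.99, 6.45 and 6.27 in the mutants and 6.24, 6.16 and 6.69 in the controls. Foxm1, a transcription factor of mitotic genes, read 4.77, 4.37 and 4.66 in the mutants and 4.47, 4.66 and 4.75 in the controls. Ccnb2 and Aurkb, the partner of Cdk1 and the kinase of the chromosomal passenger complex, differed by -0.11 and 0.16.

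The spindle checkpoint genes Bub1 and Bub1b differed by 0.15 (SE 0.19) and -0.02 (SE 0.18). Cdc20, which activates the anaphase-promoting complex, differed by 0.09 (SE 0.17), and Birc5, the survivin subunit of the passenger complex, by -0.22 (SE 0.28). Apart from Cenpq and Rcc1, the 7 measured kinetochore, spindle and cytokinesis genes (Cenpe, Kif11, Kif20a, Kif23, Prc1, Tpx2 and Nusap1) differed by -0.25 to 0.08, and the groups overlapped in each. Without mutant replicate 1 Prc1, a cytokinesis factor that bundles microtubules, moved to -0.33 (-0.06 with it) and Tpx2 to -0.27 (-0.03 with it). Within these genes single probe sets went either way. Probe set 5010082 of the spindle motor gene Kif11 averaged 2.85 in mutants and 4.36 in controls. In Kif23, a motor of cytokinesis, probe set 5454069 averaged 4.73 in mutants and 3.52 in controls, whereas probe set 5448022 read 3.43, 2.83 and 3.98 in the mutants and 4.79, 4.22 and 4.49 in the controls. Probe set 4389535 of the spindle assembly factor Tpx2 averaged 2.58 in mutants and 3.74 in controls, and probe set 4811785 of the kinetochore motor Cenpe averaged 5.04 and 3.68. None of these passed adjustment in limma (adjusted p = 0.994 for each). Probe sets 5010082 and 4389535 lay under the signal minimum of 3 in mutants and were kept through the controls. Their lower means in mutants were therefore fixed by the filter.

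The proliferation marker Mki67 rested on 4 probe sets and was dim. It read 4.77, 3.77 and 3.33 in the mutants and 3.70, 3.42 and 4.01 in the controls. Mutant replicate 1 was the highest array and mutant replicate 3 the lowest. The difference was 0.25 (SE 0.35, 95% interval -0.55 to 1.04), and -0.16 without mutant replicate 1 over the same probe sets, or -0.21 with the signal minimum applied again. Of the 4 probe sets 2 had a higher and 2 a lower mean in mutants. The lowest control mean among them was 2.39, under the signal minimum of 3. That probe set was therefore kept through the mutants, could only be higher in them and enters the Mki67 mean. Top2a, the topoisomerase that untangles sister chromatids, read 5.12, 4.43 and 4.92 in the mutants and 4.66, 4.81 and 5.16 in the controls, a difference of -0.06 (SE 0.22).

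**Figure D3:**
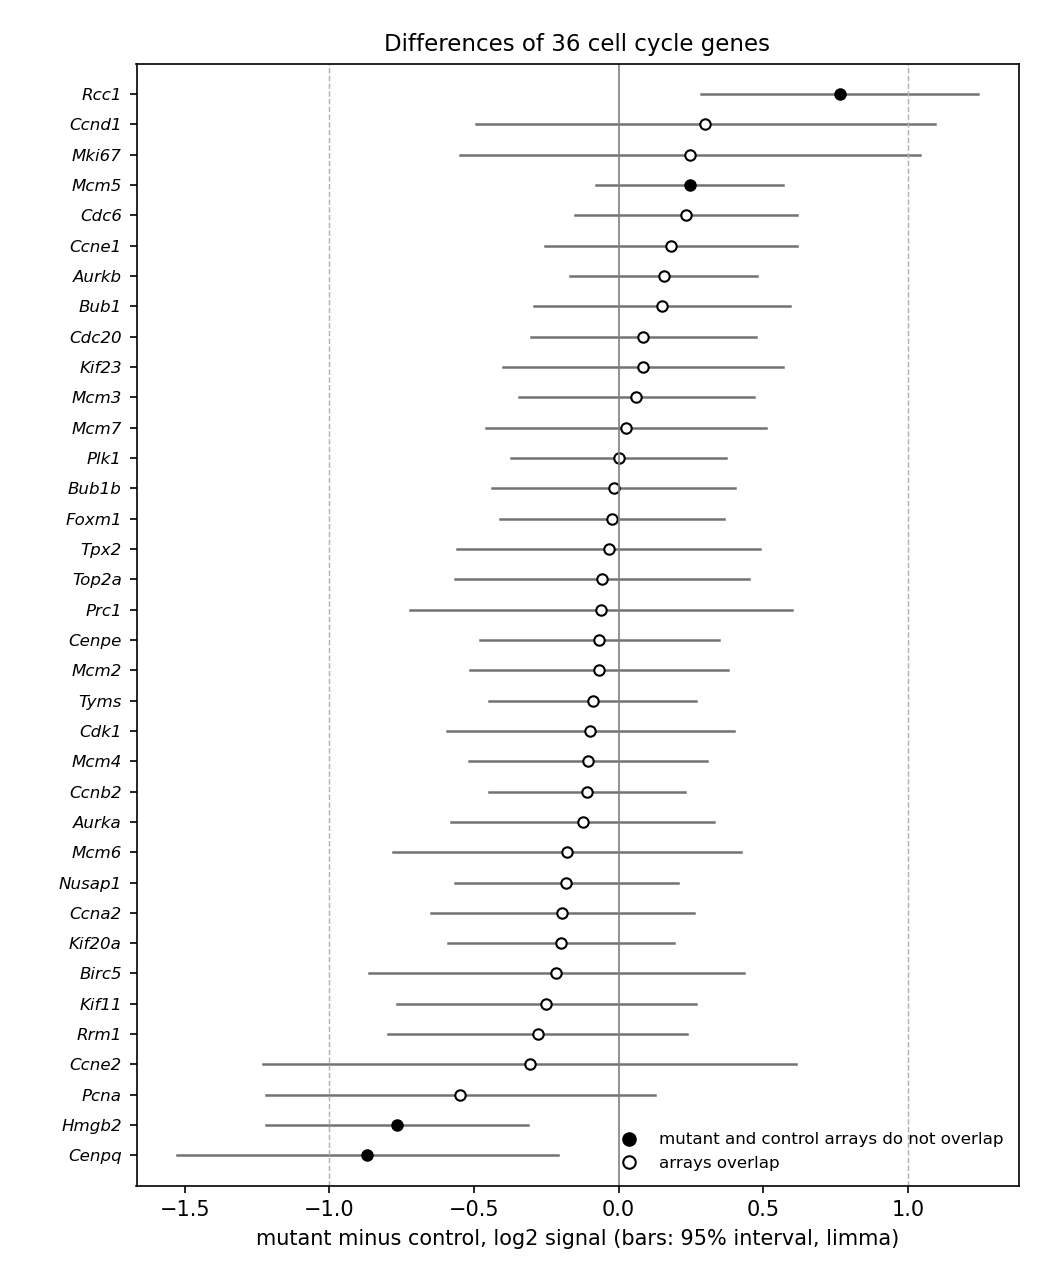
Difference between mutant and control livers in log2 signal for each of the 36 measured cell cycle genes (x axis; points are differences, filled where the groups did not overlap, and bars 95% intervals from limma), sorted by size; dashed lines mark 1 log2 unit. Only the intervals of Rcc1, Hmgb2 and Cenpq leave out 0, and 29 of the 36 lie within the dashed lines.

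Most mitotic members were lowest in the same mutant liver. Over the 20 measured members of mitotic entry, checkpoint, kinetochore and spindle, the mean deviation from the control mean was 0.04, -0.26 and 0.04 in the mutants and -0.07, -0.09 and 0.16 in the controls. Mutant replicate 2 was the lowest array for 12 of the 20 (60.0%, against 17.6% of all genes), and control replicate 3 the highest for 9 (45.0%, against 14.0%). In the wider mitosis list mutant replicate 2 was lowest for 8 of 54 genes (14.8%) and control replicate 3 highest for 11 (20.4%). Endothelial markers, 8 of 8 measured, averaged 8.31, 8.04 and 8.86 in the mutants and 8.33, 8.60 and 8.86 in the controls. Cdh5, Pecam1, Clec4g and Lyve1 (5.95) were lowest on mutant replicate 2, but Stab2, Kdr, Emcn and Tek on mutant replicate 1. The part of these markers in the result was not tested. Over the 13 measured members of G1 and replication the deviations were -0.16, -0.02 and 0.05 in the mutants and -0.16, 0.01 and 0.14 in the controls. For all genes measured they were -0.09, -0.04 and 0.08 in the mutants and -0.02 to 0.02 in the controls.

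The rest of the pathway was examined in lists of other replication, mitosis and regulatory genes. The lists held 118 measured genes, 49 with a higher and 69 with a lower mean in mutants (median -0.05). None passed an adjusted p of 0.05 in limma, while 2 higher and 3 lower genes had an unadjusted p under 0.05 (over all genes 2.01% were higher and 2.20% lower at that level). Cks1b, which binds cyclin-dependent kinases and aids the destruction of p27, read 7.66, 7.38 and 7.54 in the mutants and 6.87, 7.01 and 6.92 in the controls. Every mutant lay above every control, and the difference was 0.59 (SE 0.15, unadjusted p = 0.00379 and adjusted p = 0.943 in limma). The kinesin gene Kif18a, which dampens chromosome movements, differed by -0.42 (SE 0.17), Sgo2a, a protector of cohesion, by -0.40 (SE 0.18) and the kinetochore gene Cenpk by -0.56 (SE 0.25). Cenpk was 3.47 on mutant replicate 1, and its difference was -0.27 without that array.

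Among the other replication genes, 30 of 39 had a lower mean in mutants (median -0.12), where 52.5% of all genes did. With mutant replicate 1 left out the count was 18 of 39 and the median 0.03, beside 45.8% of all genes. Mutant replicate 1 was the lowest array for 24 of the 39 (61.5%, against 32.8% of all genes), and the mean deviations were -0.35, -0.02 and 0.04 in the mutants and -0.01, 0.00 and 0.01 in the controls. Orc6, a subunit of the origin recognition complex, read 6.04, 5.56 and 6.19 in the mutants and 6.33, 6.66 and 6.49 in the controls, a difference of -0.57 (SE 0.20). It was -0.62 without mutant replicate 1. Tk1, the S-phase thymidine kinase, differed by -0.54 (SE 0.22), Pold3 of DNA polymerase delta by -0.39 (SE 0.18; -0.25 without mutant replicate 1) and the flap endonuclease gene Fen1 by 0.39 (SE 0.21).

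Of 25 other regulators, E2f8 had the smallest unadjusted p (0.0382, adjusted p = 0.943 in limma). It encodes an atypical E2F repressor that acts in the polyploidisation of mouse hepatocytes, and read 6.38, 6.56 and 7.07 in the mutants and 6.22, 5.84 and 6.32 in the controls. The groups did not overlap, and the difference was 0.54 (SE 0.22). Lin9 and Lin54, subunits of the MuvB complex that binds the TTTGAA element, differed by -0.49 (SE 0.23) and -0.37 (SE 0.22), and the phosphatase gene Cdc25a by -0.35 (SE 0.19). The differences of Lin9 and Lin54 were -0.30 and -0.16 without mutant replicate 1.

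Of 15 measured cell cycle inhibitors, 9 were lower and 6 higher in mutants (median -0.10), where 52.5% of all genes were lower. None passed in limma, and 3 had an unadjusted p under 0.05, all lower, as 2.2% of all genes were at that level. Btg1, an antiproliferative factor, read 8.70, 8.91 and 8.91 in the mutants and 9.18, 9.24 and 9.18 in the controls, a difference of -0.36 (SE 0.14) with no overlap. Cdkn2c, an inhibitor of Cdk4 and Cdk6, differed by -0.62 (SE 0.25). Rbl2, a retinoblastoma family member, differed by -0.68 (SE 0.29), and by -0.40 without mutant replicate 1. Gadd45a, a stress-induced growth arrest gene, differed by -0.75 (SE 0.35).

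**Figure D4:**
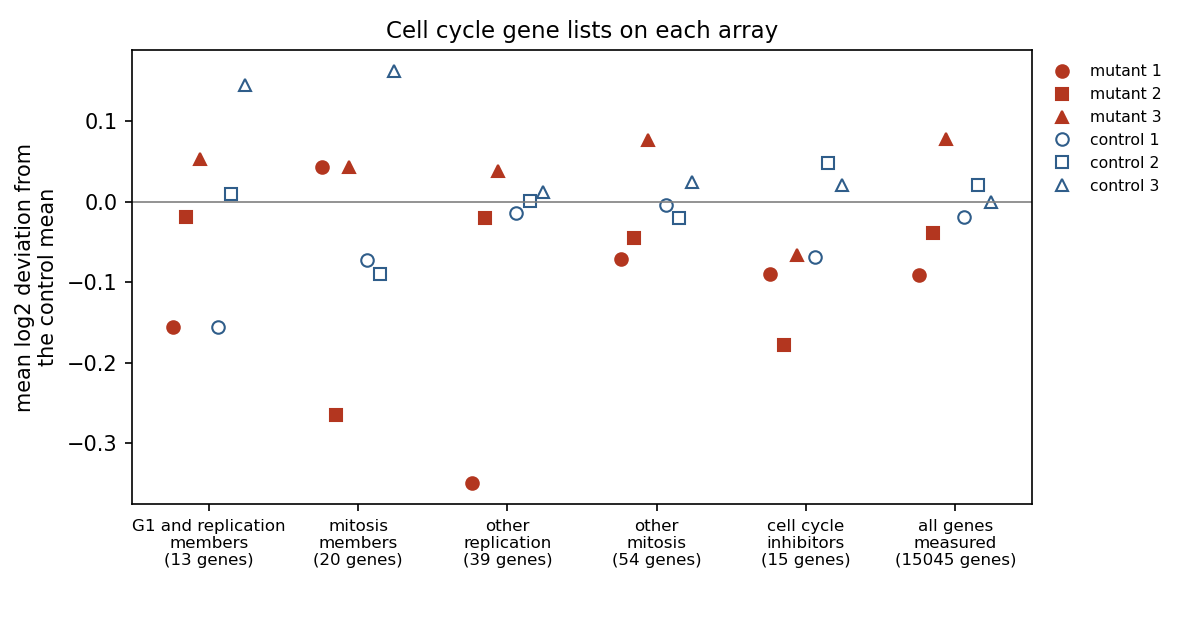
Mean log2 deviation from the control mean (y axis) over the genes of each list on each array; filled symbols are mutant livers and open symbols control livers. In the mitosis members mutant replicate 2 is lowest at -0.26, and in the other replication genes mutant replicate 1 is lowest at -0.35.

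For exon usage, each probe set was set against the other probe sets of its gene (F-test from diffSplice in limma). None of the 36 members passed, where 0.21% of 14310 genes did, and none had an unadjusted p under 0.05, where 4% did. The smallest unadjusted p-values were those of Cdc6 (0.0737), Hmgb2 (0.0814), Cenpe (0.182), Mki67 (0.212) and Mcm5 (0.228), each with an adjusted p = 1 in limma. The probe sets deviating most in these genes were 4377921, 5483344, 4811785, 4697695 and 5115824, with relative differences of 1.40, -1.28, 1.48, -1.04 and 0.74. Probe set 4377921 read 4.95, 4.19 and 3.28 in the mutants and 4.21, 0.58 and 3.04 in the controls. Its control mean of 2.61 lay under the signal minimum, so its mean could only be higher in mutants. Of the 560 probe sets of the members, 60 lay under the signal minimum in both groups and were left out. Kept probe sets under it in mutants alone could only be lower there, and those under it in controls alone only higher. Of the 500 measured, none passed an adjusted p of 0.05 (0% of all probe sets did), and 28 had an unadjusted p under 0.05, 11 higher and 17 lower in mutants, beside 4.07% of all probe sets (1.9% higher and 2.18% lower).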

How the data were processed

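Per the labels' protocols, RNA of frozen livers was copied into amplified cDNA, biotinylated and run on Affymetrix exon arrays. The authors deposited log2 signals, 1 per probe set and array; Affymetrix Expression Console 1.1, RMA, Partek 6.4 and mm9 stand in the submitters' processing notes, without role or order. RMA is meant to make the arrays' distributions alike and shrinks differences at low signal. The medians of the deposited arrays still ran from 6.73 to 6.95. Precision is limited by the 3 arrays per group.

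Probe sets with a single gene symbol (185264 of 204531) were matched to genes, older symbols being updated through RefSeq. Probe sets with a group mean of at least 3 were kept, and a gene was the mean of at least 2 of them. Groups were compared, mutant minus control, with limma 3.58.1 in R 4.3.3 (lmFit, eBayes, Benjamini-Hochberg over all genes or probe sets tested, threshold 0.05), and exon usage with diffSplice (at least 3 probe sets). These steps were also run on simulated data, with noise drawn independently for each value. The share of simulated differences recovered is not given here. P-values set each difference against the spread between these mice, which eBayes moderates with the values of all genes or probe sets tested.

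The members and lists were chosen with earlier results of these data known. Per-array values were given for members with an unadjusted p under 0.05 or no overlap and for a fixed set of classical genes. Others named were the 4 genes of smallest p per further list, the 10 member probe sets of smallest p and the 5 members of smallest p for exon usage, with Rrm1 and further probe sets chosen after their values were seen. Alternatives covered the signal minimum, scaling, gene summary, moderation, array weights, a replicate block, the Simes test and each array left out. Equal replicate numbers did not pair the arrays (correlations of deviations 0.10, -0.11 and 0.18).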

Additional observations from a re-analysis of the deposited data

How the results depend on the processing

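No member gene, other cell cycle gene, member probe set or member exon usage passed the threshold under any alternative run. The median difference of the members, reported as -0.06, ran from -0.11 to -0.0037 under the settings that kept all arrays and from -0.13 to 0.06 with 1 array left out, positive without control replicate 3 (0.03) or mutant replicate 2 (0.06, with the signal minimum applied again). That of the other cell cycle genes, reported as -0.05, turned positive without mutant replicate 1 (0.03). In counts added after seeing the data, 14 to 27 of the 36 members (23 as reported) and 18 to 33 of the 39 other replication genes (30 as reported) were lower in mutants with 1 array left out. Members with an unadjusted p under 0.05 numbered 3 as reported, 4 with the replicate block or array weights, each of which added Pcna, and 2 to 4 with 1 array left out. The share of all genes at that level moved too. It was 4.21% as reported, 5.94% with the block, 8.09% with array weights and 2.15% to 9% with 1 array left out. Hmgb2 and Rcc1 were among these members in all 15 alternatives and Cenpq in 13, missing without control replicate 3 and without moderation. The differences ran from -0.91 to -0.62 for Hmgb2, 0.63 to 0.96 for Rcc1 and -1.13 to -0.56 for Cenpq; the extremes included the settings with 1 array left out. Of 779 single-gene differences recomputed, 12 moved by more than the SD within groups and none passed the threshold. Among the genes that moved, Cks1b came down to 0.27, Kif18a to -0.15 and Btg1 to -0.12, and Cdc6 changed sign to -0.18. Without mutant replicate 1 the differences of 6 members changed sign (Ccnd1, Ccne2, Mcm2, Plk1, Kif23 and Mki67), and those of Pcna and Rrm1 shrank to -0.27 and -0.03. The replicate block changed no other call. Depth does not apply to arrays; dim genes such as Mki67 and Bub1, with means under 5, are limited by low signal.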
